A study of Mus musculus with 2 samples.

Results

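The cells described here were single epithelial cells of the mouse jejunum in which Dmbt1 took up a large part of the transcripts while Lgr5 and Ascl2, the defining stem cell genes, were not detected. A cell was counted as a member when it met all limits of 1 rule: at least 500 genes detected and at most 20% of its UMIs (unique molecular identifiers, 1 per captured transcript) from mitochondrially encoded genes, Dmbt1 at 0.3% of UMIs or more, no UMI of Lgr5 or Ascl2, Olfm4 under 0.05%, and at most 1 of the 5 mitotic genes Mki67, Top2a, Cdk1, Ccnb1 and Cenpf detected. The rule also asked for Apoa1, Apoa4 and Apoc3 together under 0.5%, Lyz1 and the defensins under 10%, and Muc2, Fcgbp, Tff3, Agr2 and Spink4 under 2%. These limits were met by 2413 of 22282 kept cells, 95 of 11263 in the library of the control and 2318 of 11019 in that of the antagonist. Members were thus chosen by measured UMI shares of the genes in the rule, and the levels of those genes are given as a description.

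The study compared female mice aged 10 to 12 weeks that carried the Lgr5-eGFP-IRES-CreER allele, in which the Lgr5 promoter drives a green fluorescent protein, and that had received either an Fc control protein or an antagonist of the Wnt receptors FZD5 and FZD8. GFP-positive cells of the jejunum had been sorted from 3 mice per condition and captured with the 10x Genomics V3.1 NextGEM kit, 1 library for each condition. The sources used here state neither dose nor duration. Cells cannot be assigned to mice from the labels, so each condition counted as 1 sample, no test of the condition was possible, and every difference below compares 2 libraries.

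In the crypt, Wnt signals from neighbouring cells keep Lgr5-positive stem cells at the base in their undifferentiated state. Daughter cells that move up lose Lgr5 and Ascl2, then Olfm4, divide several times as transit-amplifying progenitors, and mature into absorptive enterocytes or secretory cells. Dmbt1 encodes a secreted glycoprotein with scavenger receptor domains that binds bacteria and takes part in mucosal defence. The other genes used to mark these cells were Rbp7, which encodes a cellular retinol-binding protein, Arg2, the mitochondrial arginase, and Gsdmc4, a member of the gasdermin C family of pore-forming proteins. In GRCm38, the annotation GENCODE vM21 places Dmbt1 (ENSMUSG00000047517) on the plus strand of chromosome 7 at 131032053 to 131121630, Arg2 (ENSMUSG00000021125) on the plus strand of chromosome 12 at 79130777 to 79156301, Rbp7 (ENSMUSG00000028996) on the minus strand of chromosome 4 at 149449687 to 149454978, and Gsdmc4 (ENSMUSG00000055748) on the minus strand of chromosome 15 at 63891264 to 63912297.

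The libraries held 12672 barcodes with 67411637 UMIs and 13085 barcodes with 55810293 UMIs, and 145 barcode sequences occurred in both, 67 of them among kept cells and 0 among members. Transcripts of 4 Y-linked genes made up 92.1 CPM (UMIs per 1e6 UMIs of the cells summed) in the control members and 5.97 CPM in the antagonist members, and Xist 4.72 and 512 CPM, although both libraries are labelled female. This difference runs with the treatment, and a difference between the animals and one between the treatments cannot be told apart. Doublets were not removed.

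Members made up 0.843% of the kept control cells, with an exact binomial 95% interval of 0.683 to 1.03%, and 21.0% of the kept antagonist cells (20.3 to 21.8%). The share was 24.9 times as high in the antagonist library (20.3 to 31.0). Intervals in this text cover counting error only. The Dmbt1 limit alone kept 1086 control cells, 9.64% of the library, and 6736 antagonist cells, 61.1%. Asking for no Lgr5 and no Ascl2 left 864 and 6570 cells. The Olfm4 limit then kept 30.6% of the remaining control cells and 80.0% of the remaining antagonist cells, which left 264 and 5254. The limit on mitotic genes left 98 and 2442 cells, and the limits on apolipoprotein, Paneth cell and goblet cell transcripts brought these to the final 95 and 2318.

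**Figure D1:**
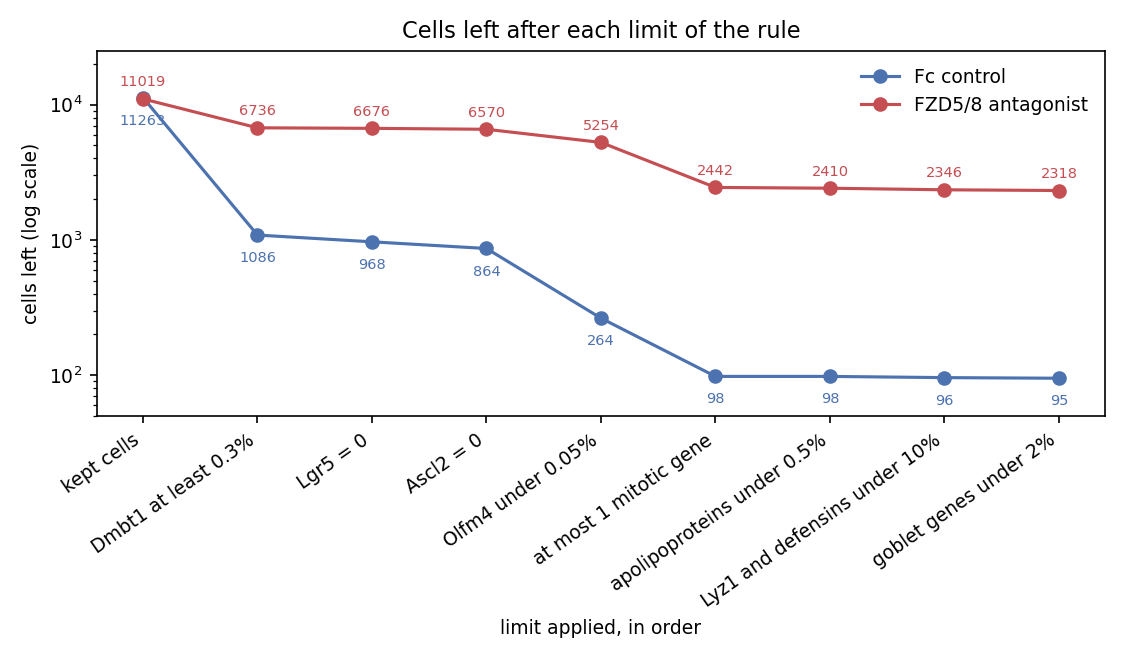
Cells left in each library after each limit of the rule, applied in order (x axis); the y axis counts cells on a log scale, blue for Fc control and red for FZD5/8 antagonist. The curves start at 11263 and 11019 cells and end at 95 and 2318, with the widest single separations at the Dmbt1 and Olfm4 limits.

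The size of the difference in share moved with depth and with the Olfm4 limit. Kept cells of the control library were deeper, with a median of 4478 UMIs against 2732. When every cell was thinned to 2000 UMIs before the rule was applied, 1.16% of 8883 control cells and 22.5% of 6904 antagonist cells were members. At 1000 UMIs the shares were 2.92% and 36.4%, a ratio of 12.5. At 3000 UMIs they were 1.35% and 20.3%, a ratio of 14.99. Without any Olfm4 limit they were 3.69% and 27.8%, a ratio of 7.52.

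**Figure D2:**
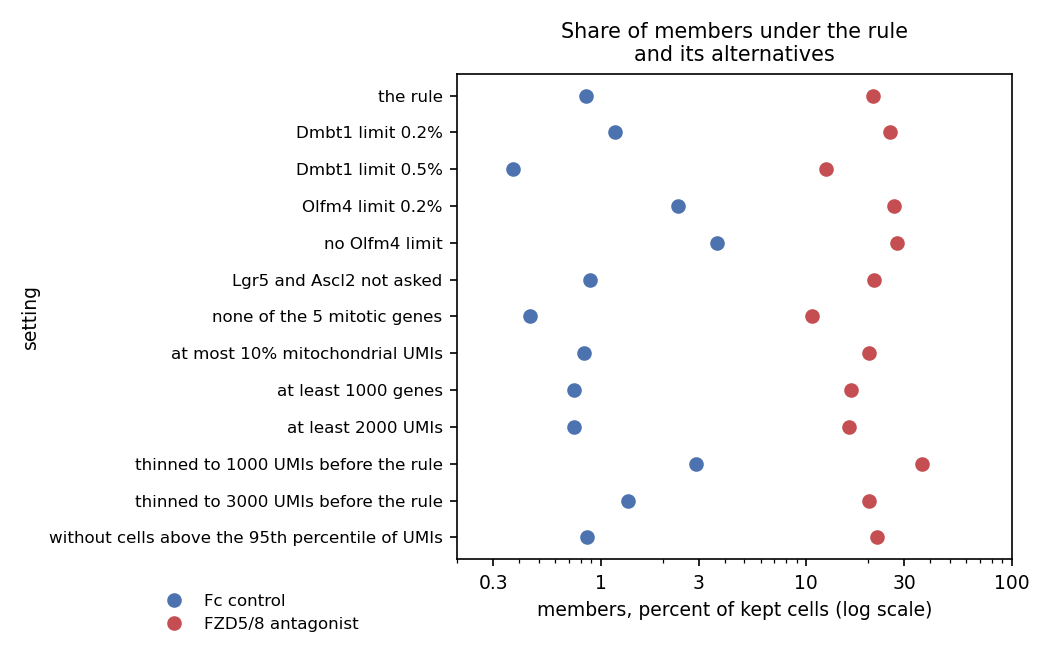
Share of kept cells that were members (x axis, percent, log scale) under the rule and under each of its alternatives (y axis); blue points are the Fc control library and red points the FZD5/8 antagonist library. The control points lie between 0.373% and 3.69% and the antagonist points between 10.6% and 36.4%, so no setting brought the libraries level.

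The members themselves differed in depth in the same direction. The 95 control members had a median of 3295 UMIs and 1581 genes per cell and 423567 UMIs in all, and the 2318 antagonist members had medians of 1882.5 UMIs and 1016 genes and 5694813 UMIs in all. The 5 control members of most UMIs held 21.0% of the control members' UMIs, against 1.40% for the 5 deepest antagonist members. The median mitochondrial share was 4.02% and 3.25%. Genes with few control UMIs are given with their counts.

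Dmbt1, used in the rule, stood at 5451 CPM in control members and 6361 CPM in antagonist members, and the per-cell median was 0.468% and 0.564% of UMIs, with maxima of 1.46% and 2.80%. Rbp7 had 36 UMIs or 84.99 CPM in control members (95% Poisson interval 59.5 to 118) and 474 UMIs or 83.2 CPM in antagonist members (75.9 to 91.1). Arg2 stood at 286 CPM (237 to 341) and 254 CPM (241 to 268). Gsdmc4 had 12 UMIs, 28.3 CPM (14.6 to 49.5), and 240 UMIs, 42.1 CPM (37.0 to 47.8). For Rbp7, Arg2 and Gsdmc4 the interval of the ratio between the libraries included 1, at 0.697 to 1.42, 0.738 to 1.08 and 0.836 to 2.92. These ratios moved with the limits. Over 21 alternatives the log2 ratio of Rbp7 ran from -0.23 to 1.11 and that of Arg2 from -0.53 to 0.77, each highest without the Olfm4 limit, and that of Gsdmc4 from -0.056 to 1.83, the ends being thinning to 3000 and to 1000 UMIs.

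Outside the members, the same genes stood apart between the libraries. In all other kept cells Dmbt1 was 3.33 times as high in the antagonist library, Arg2 4.39 times (46.7 against 205 CPM), Rbp7 5.14 times (18.6 against 95.5 CPM) and Gsdmc4 7.73 times (4.67 against 36.1 CPM). Rbp7 and Gsdmc4 were thus at or near the members' level in the other antagonist cells, and did not set the members apart within that library. Arg2 was also near it, at 205 CPM in those cells against 254 CPM in the antagonist members.

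Each of these marker transcripts was seen in a minority of the members. At 2000 UMIs per cell, which 66 control and 1119 antagonist members reached and 29 and 1199 did not, Rbp7 was detected in 13.6% and 14.1% of members, Arg2 in 28.8% and 36.3%, and Gsdmc4 in 2 of 66 (3.03%) and 8.22%. Before thinning the shares were 21.1% and 16.6% for Rbp7, 35.8% and 35.6% for Arg2, and 10.5% and 8.84% for Gsdmc4. Tuft cells, a chemosensory type that is not known for these transcripts, served as a background. In cells with at least 0.5% of their UMIs from tuft markers, 217 of the control and 195 of the antagonist, Rbp7 stood at 1.84 and 11.1 CPM, Arg2 at 10.1 and 35.7 CPM and Gsdmc4 at 2.75 and 8.92 CPM. Their median depth was 3939 and 1751 UMIs. Dmbt1 in those tuft cells was 251 CPM in the control and 687 CPM in the antagonist library, and 0 and 4 of them (2.05%) passed the Dmbt1 limit of 0.3%. That tuft limit was set after seeing the data. At the same limit for enteroendocrine markers, 0 of 40 control and 5 of 41 antagonist cells (12.2%) passed. With only 3 or more tuft markers asked, as planned, 9 of 290 and 195 of 654 (29.8%) passed. In that wider group, deep in the antagonist library (median 10753.5 UMIs), Rbp7 stood at 12.6 and 103 CPM, Arg2 at 20.9 and 238 CPM and Gsdmc4 at 2.91 and 48.3 CPM.

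A Dmbt1 share of 0.3% fell within a continuous range of cells. Just below it, at 0.2 to 0.3% of UMIs with all other limits met, lay 37 control and 488 antagonist cells, and just above, at 0.3 to 0.4%, lay 31 and 519. In the antagonist library Rbp7 was 81.4 CPM just below and 82.4 just above the limit, Arg2 215 and 224 CPM, and Gsdmc4 33.7 and 43.2 CPM. In cells at under 0.05% Dmbt1 that met the other limits, 232 in that library, the levels were 22.6, 104 and 2.26 CPM. The Olfm4 limit had 32 control and 301 antagonist cells just inside it, at 0.02 to 0.05%, and 35 and 254 just outside, at 0.05 to 0.08%. Olfm4 was at 0 in 55 of the control members and 1961 of the antagonist members.

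The rule fixed the genes it uses, so the label of progenitors without stem markers can be read only from other genes. Of 10 stem cell markers, Lgr5 and Ascl2 were at 0 by the rule. The other 8, which include the capped Olfm4 at 149 and 74.6 CPM, were detected, together at 604 CPM in control members and 438 CPM in antagonist members. Without thinning, at least 1 of their UMIs was present in 78.9% and 54.3% of members. Control members were deeper (median 3295 against 1882.5 UMIs), so these shares are not at equal depth. Smoc2, a secreted matrix protein enriched in crypt base stem cells, stood at 70.8 and 65.7 CPM. Cycling markers, 7 genes with the 5 mitotic genes of the rule among them, totalled 264 and 490 CPM. Enterocyte markers, 9 genes with the capped apolipoproteins among them, totalled 7123 and 4230 CPM. Paneth cell markers, 7 genes with the capped Lyz1 and defensins among them, totalled 5126 and 4808 CPM. Without thinning they were seen in 100% and 94.7% of members. Goblet cell markers, 7 genes with the 5 capped ones among them, totalled 538 and 1362 CPM.

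Markers of cells outside the epithelium were at or near 0. All 7 stromal and all 4 erythroid markers had 0 UMIs in the members of both libraries. The 10 T and NK cell markers had 1 and 30 UMIs, the 8 B and plasma cell markers 1 and 28, the 5 endothelial markers 1 and 25, and the 8 macrophage markers 10, all in 1 control cell, and 11. Tuft markers had 4 and 499 UMIs, and enteroendocrine markers 5 and 572, the latter in 49 of the antagonist members.

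Among 9781 genes with at least 20 UMIs over the members of both libraries, 1266 (12.9%) were higher in the antagonist members by 1.5-fold or more and 1736 (17.7%) were lower by as much. The median log2 ratio over these genes was -0.08. With the 2871 genes at a mean of 50 CPM or more, a filter chosen after seeing the data, 129 (4.49%) were higher and 213 (7.42%) lower.

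The 12 genes furthest below the control among antagonist members were Reg3b, Reg3g, Ppfibp2, Il18, Reg1, Adh6a, Krt20, Sult2b1, Galm, Fabp1, Ms4a18 and Apol10a. The ranking used a pseudocount of 0.5 UMIs and took in 2974 genes that reached 50 CPM in 1 of the libraries and 100 UMIs over both. Reg3b, an antibacterial C-type lectin, stood at 1938 CPM in control members and 225 CPM in antagonist members, 8.63-fold lower (7.90 to 9.43). Its close relative Reg3g, which binds Gram-positive bacteria, stood at 2068 and 360 CPM, 5.74-fold lower (5.30 to 6.22). At 2000 UMIs Reg3b was detected in 40.9% of control and 13.3% of antagonist members and Reg3g in 33 of 66 and 22.8%. Both lectins were also lower in all other cells of the antagonist library, 3.91-fold and 3.58-fold, and in its tuft cells Reg3b was 58.0 CPM against 607 CPM in those of the control library.

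Reg1, another Reg family lectin, was 855 and 276 CPM, or 3.098-fold lower in antagonist members (2.76 to 3.48). Il18, the gene of an epithelial cytokine, was 84.99 and 26.2 CPM (3.25-fold, 2.19 to 4.70), and Adh6a, an alcohol dehydrogenase, 824 and 277 CPM (2.98-fold, 2.64 to 3.34). Unlike the Reg3 lectins, these genes were higher in the other cells of the antagonist library than in those of the control, by 1.75, 1.32 and 1.57 times. Krt20, a keratin of differentiated epithelium, stood at 68.5 and 24.4 CPM, from 29 UMIs in 14 control cells. Ppfibp2, Sult2b1 (a sterol sulfotransferase), Galm (galactose mutarotase), Ms4a18 and Apol10a were 2.56-fold to 3.67-fold lower, each on 27 to 49 control UMIs.

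Fabp1, the liver-type fatty acid-binding protein of absorptive cells, gave different answers per transcript and per cell. Its level was 3617 CPM in control members (3438 to 3803) and 1383 CPM in antagonist members (1352 to 1414), 2.62-fold lower. It was nevertheless detected at 2000 UMIs in 54.5% of control and 65.2% of antagonist members. When cells were thinned to 1000 UMIs before the rule, which admitted other cells, its log2 ratio was 0.09 in place of -1.39.

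The 12 genes furthest above the control were Xist, Hist1h1a, Abhd2, Chgb, Nusap1, Agr2, Pclaf, Prc1, Mphosph8, Cenpe, Smc2 and Zg16. Pclaf, a PCNA-associated factor, had 57 UMIs, 135 CPM (102 to 174), in control members and 459 CPM (441 to 477) in antagonist members, 3.41-fold higher (2.62 to 4.51). Smc2, a condensin subunit, stood at 37.8 and 107 CPM, Prc1, a spindle midzone protein, at 30.7 and 100.3 CPM, Cenpe, a kinetochore motor, at 16.5 and 50.4 CPM, and Nusap1, a spindle-associated protein, at 14.2 and 58.5 CPM. The linker histone gene Hist1h1a had 4 control UMIs and a ratio of 6.08 with an interval of 2.35 to 22.4. In all other cells the ratios of these genes were smaller, from 1.27 for Hist1h1a and Cenpe to 1.83 for Pclaf.

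Several goblet cell genes were higher in antagonist members although the rule removed cells rich in 5 of them. Agr2, a protein disulfide isomerase needed for mucin production, stood at 61.4 CPM (26 UMIs) and 212 CPM, 3.46-fold higher (2.35 to 5.31). Zg16, a lectin of goblet cell granules that the rule did not use, stood at 94.4 and 260 CPM, 2.76-fold higher (2.02 to 3.88). Fcgbp was 40.1 and 109.9 CPM, Spink4 274 and 637 CPM, and Muc2, the main secreted mucin, 11.8 CPM on 5 UMIs and 31.4 CPM. At 2000 UMIs 1 of 66 control members (1.52%) and 11.5% of antagonist members held 3 or more of the goblet markers. Zg16 in all other cells was 3.46 times as high in the antagonist library, and in its tuft cells stood at 103 CPM against 17.4 CPM. Agr2 in tuft cells stood at 64.2 CPM in the control and 256 CPM in the antagonist library, near its level in the members.

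Chgb, a granule protein of enteroendocrine cells, ranked high at 9.44 and 51.3 CPM, but its 292 antagonist UMIs came from 22 cells, 0.949% of the members. Abhd2, a lipid hydrolase gene, stood at 16.5 CPM on 7 UMIs and 94.1 CPM, and Mphosph8 at 21.2 CPM on 9 UMIs and 66.0 CPM.

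**Figure D3:**
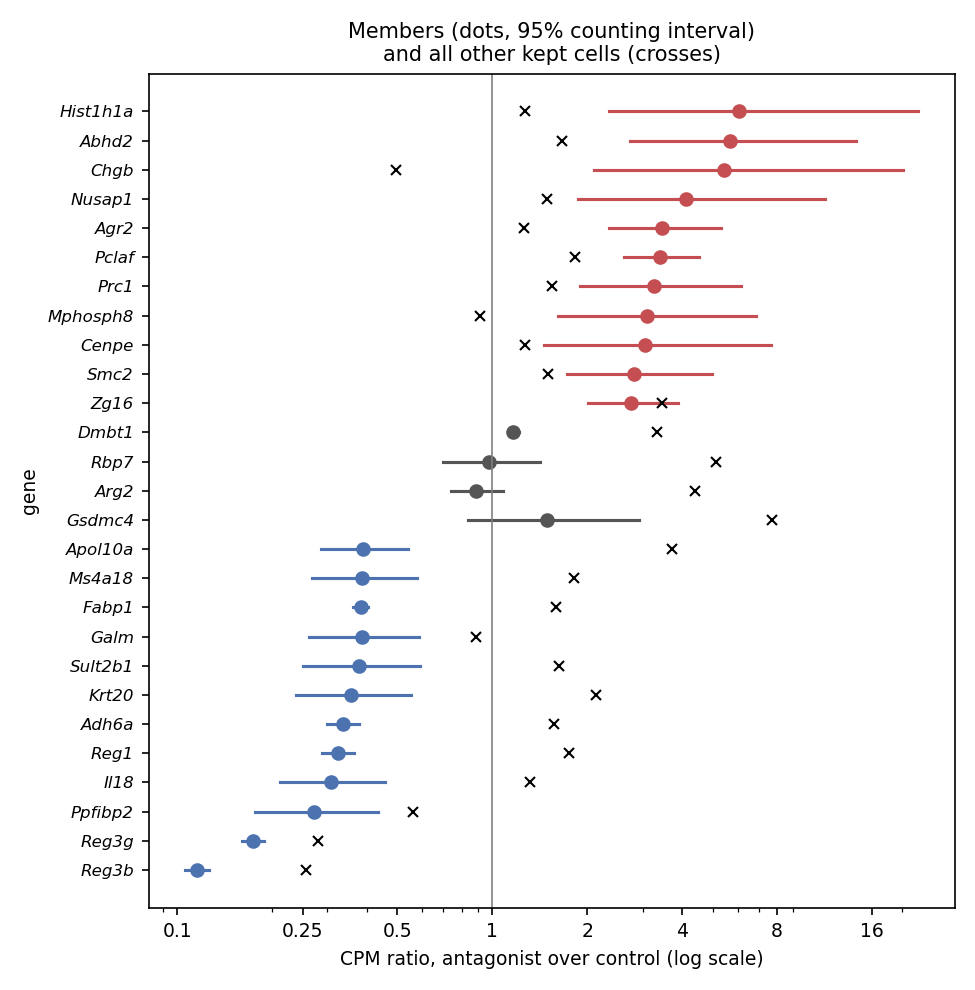
CPM ratio of antagonist over control (x axis, log scale) for the highest and lowest ranked genes and the 4 markers (y axis, Xist left out); dots are members with 95% counting intervals, and crosses are all other kept cells. Reg3b and Reg3g lie below 1 in both, while Reg1, Adh6a, Krt20, Fabp1, Sult2b1 and Apol10a lie below 1 in members and above 1 in the other cells.

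Genes for mitosis and its approach (G2 and M phases), none of them used in the rule, had higher levels among antagonist members throughout the list. All 25 tested genes had a ratio above 1, with 22 reaching 1.5-fold, and their median log2 ratio was 1.11, against 0.58 for the same genes in all other cells. Ube2c, the mitotic ubiquitin-conjugating enzyme, stood at 63.7 and 129 CPM, Cks2 at 49.6 and 117 CPM, Cenpa, the centromeric histone, at 33.1 and 85.3 CPM, and Hmgb2, a chromatin protein, at 354 and 565 CPM. The summed level was 921 and 1836 CPM. Among the 5997 genes that also reached 20 CPM in a library, where 7.15% were higher and 14.6% lower by 1.5-fold, 17 of 20 G2 and M genes were higher by as much.

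The difference in G2 and M genes became smaller when cells were weighted equally and when their depth was matched or thinned. The median was 0.67 when each cell had equal weight, which leaves its depth as it was. It was 0.58 when members were weighted to the same UMI bins. It was 0.31 and 0.38 when cells were thinned to 1000 and 3000 UMIs before the rule, which counts mitotic genes by detection. At 2000 UMIs 22.7% of control members (13.3 to 34.7%) and 37.4% of antagonist members (34.6 to 40.4%) had 3 or more G2 and M genes. These members had been chosen at full depth.

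Replication genes had a smaller median difference, whose direction depended on depth. Of 32 tested, 28 had a higher level and 4 a lower one in antagonist members, 9 were higher and 1 lower by 1.5-fold, against 12.9% and 17.7% of all tested genes, and the median log2 ratio was 0.50. The median ran from -0.095 to 0.78 over 21 alternatives and was below 0 in 2 of them, thinning to 1000 and to 3000 UMIs. The helicase subunit Mcm4 stood at 63.7 and 114 CPM, Mcm6 at 51.9 and 88.0 CPM, Tyms, thymidylate synthase, at 111 and 162 CPM, Dut, the dUTPase, at 94.4 and 151 CPM, and Hells, a chromatin remodeller, at 99.2 and 148 CPM. Pcna, the sliding clamp, stood at 96.8 and 111 CPM. Ung, a uracil-DNA glycosylase, and the licensing factor Cdc6 were not higher, at 51.9 and 35.1 CPM and 26.0 and 18.6 CPM. At 2000 UMIs 40.9% of control members (28.95 to 53.7%) and 54.3% of antagonist members (51.4 to 57.3%) held 3 or more replication genes.

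Absorptive enterocyte genes had lower summed levels in antagonist members. Of 31 tested genes 27 were lower and 4 higher, 22 were lower and 1 higher by 1.5-fold (17.7% and 12.9% of all tested genes), the median log2 ratio was -0.71, and the sums were 15818 and 10198 CPM. Sis, the brush border disaccharidase sucrase-isomaltase, stood at 288 and 123 CPM, Anpep, aminopeptidase N, at 411 and 181 CPM, Alpi, the intestinal alkaline phosphatase, at 170 and 74.98 CPM, and Slc5a1, the sodium-glucose cotransporter, at 312 and 174 CPM. Fabp2, the intestinal fatty acid-binding protein, and Dpp4, a peptidase, did not follow, at 1948 and 2034 CPM and 84.99 and 85.5 CPM. In all other cells the same genes had a median log2 ratio of 0.82, the opposite direction.

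A few control members held much of the absorptive sum. At 2000 UMIs the median member held 12.5 UMIs of the absorptive list in the control library (quartiles 9 and 26.25) and 14 in the antagonist library (10 and 20), so the median cell went the other way from the sum. Cells with 40 or more such UMIs were 14 of 66 control members (21.2%, 12.1 to 33.0%) and 100 of 1119 antagonist members (8.94%). The 10 highest control cells held 50.2% of the list's UMIs in the thinned control members. Without the 5 members of most UMIs in each library, a choice made after seeing the data, the median log2 ratio was -0.37, and without the Olfm4 limit it was 0.10.

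Stem cell signature genes were lower in antagonist members in 16 of 17 cases, 9 of them by 1.5-fold, where 17.7% of all tested genes were lower by as much, with a median log2 ratio of -0.70. Among those that also reached 20 CPM in a library, 3 of 9 were lower by 1.5-fold, against 14.6% of 5997 genes. Igfbp4, an insulin-like growth factor-binding protein, stood at 28.3 CPM on 12 UMIs and 10.01 CPM, Soat1, a cholesterol acyltransferase, at 59.0 and 36.9 CPM, and Slc12a2, a sodium-potassium-chloride cotransporter, at 272 and 233 CPM. Smoc2 and Prom1, a membrane glycoprotein, were close, at 70.8 and 65.7 CPM and 66.1 and 65.1 CPM. In all other cells the median of the list was -2.35. Olfm4 itself, which the rule capped, was 149 and 74.6 CPM.

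Wnt target genes did not share a direction in the members under the rule. Of 11 tested, 5 were higher and 6 lower, 1 and 3 by 1.5-fold (12.9% and 17.7% of all tested genes), and the median log2 ratio was -0.04, against -1.46 in all other cells. It was -0.76 without the Olfm4 limit, -0.56 at an Olfm4 limit of 0.2%, -0.61 after thinning to 3000 UMIs and 0.34 in cells with none of the mitotic genes. Axin2, a feedback inhibitor of the pathway, stood at 37.8 CPM on 16 UMIs and 20.9 CPM, a ratio of 0.553 (0.327 to 0.999). Ccnd1, cyclin D1, stood at 168 and 142 CPM, Rnf43, a ubiquitin ligase that removes Frizzled receptors, at 26.0 and 35.1 CPM, Cdca7 at 149 and 152 CPM and the transcription factor Sox9 at 47.2 and 72.9 CPM. The interval of Sox9 was 0.986 to 2.55, and its log2 ratio ran from -0.49 without the Olfm4 limit to positive values under the rule.

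Among the receptors, Fzd5 stood at 132 CPM (56 UMIs) in control members and 112 CPM in antagonist members, a ratio of 0.845 (0.642 to 1.13). This was above its level of 53.1 and 83.3 CPM in all other cells. It was nearer to the 96.8 and 104 CPM of cells with 2 or more of the 5 mitotic genes that met all other limits. Fzd8 had 0 and 7 UMIs. The co-receptor Lrp6 stood at 92.1 and 94.8 CPM and Lrp5 at 11.8 CPM on 5 UMIs and 25.1 CPM.

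Retinoid genes and the arginine and urea cycle genes, the families of Rbp7 and Arg2, had medians near that of all genes. The retinoid list had a median log2 ratio of -0.05 over 13 genes, with Rbp2, the abundant retinol-binding protein of enterocytes, at 2956 and 1962 CPM and Isx, an intestinal homeobox factor that represses vitamin A uptake, at 63.7 and 49.2 CPM. The arginine list had a median of -0.08 over 15 genes. Cps1 and Otc, the mitochondrial enzymes that start the urea cycle, stood at 534 and 563 CPM and 246 and 226 CPM, and Oat, ornithine aminotransferase, at 758 and 785 CPM. Nags, which makes the activator of Cps1, stood at 51.9 and 29.3 CPM, and Sms, spermine synthase, at 33.1 and 61.6 CPM.

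The gasdermin list, to which Gsdmc4 belongs, had 5 tested genes with a median log2 ratio of -0.33 in members and 2.95 in all other cells. Gsdmd, the inflammasome effector, stood at 37.8 and 12.8 CPM and Gsdmc2 at 33.1 and 27.2 CPM. Genes of the gasdermin C cluster are close copies of each other, and no source used here says how reads were split among them, so their single levels are uncertain.

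The next 5 lists had medians below that of all tested genes. Mucosal defence genes had a median of -0.46 over 17 genes, with 14 lower, and included Nlrp6 at 177 and 93.1 CPM besides the Reg3 lectins, while Pigr, the immunoglobulin transporter, stood at 2198 and 2008 CPM, Ccl28 at 96.8 and 107 CPM and Gpx2 at 859 and 935 CPM. Ion transport genes had a median of -0.39 over 16 genes, with Car4, a membrane carbonic anhydrase, at 246 and 118 CPM, and the chloride channel gene Cftr at 165 and 157 CPM. MHC class II genes had a median of -0.74 over 6 genes, with Cd74, the invariant chain, at 418 and 223 CPM. Epithelial transcription factors had a median of -0.22 over 21 genes, with Hnf4g at 274 and 159 CPM, Cdx2 at 77.9 and 65.5 CPM and Klf5 at 349 and 368 CPM. Regenerative genes had a median of -0.62 over 5 genes, with Anxa2 at 158 and 86.6 CPM and Ly6a at 70.8 and 53.7 CPM.

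The remaining lists held few named differences. Medians were -0.06 over 9 Notch genes, with the Notch target Hes1 at 99.2 and 96.4 CPM, and -0.17 over 15 BMP genes, with the ligand Bmp3 at 75.5 and 116 CPM. They were -0.23 over 19 sterol synthesis genes, -0.26 over 5 Wnt receptor genes, -0.26 over 11 immediate early genes and -0.28 over 11 p53 response genes. Jund, an immediate early transcription factor, stood at 187 and 107 CPM, and Cdkn1a, the p53-responsive cell cycle inhibitor, at 28.3 CPM on 12 UMIs and 24.2 CPM.

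**Figure D4:**
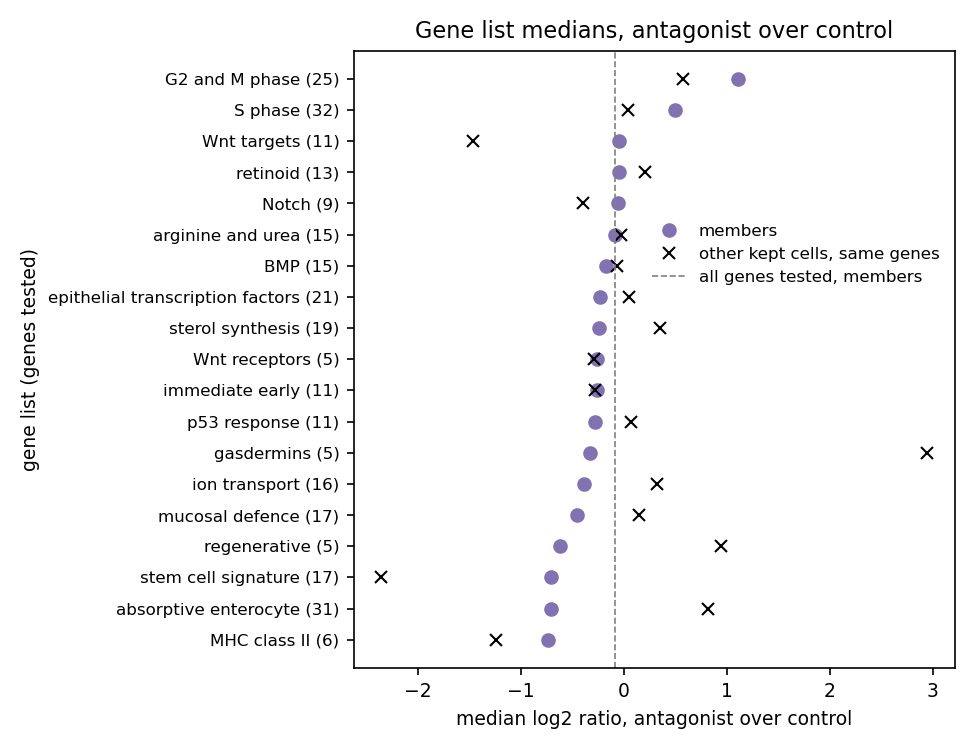
Median log2 ratio of antagonist over control (x axis) for each gene list (y axis, genes tested in brackets); dots are members, crosses the same genes in all other kept cells, and the dashed line is the median over all tested genes in members, -0.08. G2 and M phase genes lie furthest to the right in members at 1.11, and stem cell signature, Wnt target and absorptive genes lie apart from their values in the other cells.

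The members were set beside 3 other groups of cells within each library. All 3 kept the other limits of the rule, so none held a UMI of Lgr5 or Ascl2. Olfm4-high cells had Olfm4 at 0.5% or more and Dmbt1 under 0.3%, 523 in the control and 33 in the antagonist library. Apolipoprotein-rich cells, a mature enterocyte group, had the 3 apolipoproteins at 0.5% or more and any level of Dmbt1, 108 and 228 cells. Dmbt1-high cycling cells had 2 or more of the 5 mitotic genes, 163 and 2688 cells.

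Against Olfm4-high cells, members held less of the stem cell programme and more of absorptive transcripts. The groups were split by Olfm4, itself a stem cell marker, so the stem cell comparison is not independent of the split. In the control library 13.5% of 7763 tested genes were higher in members by 1.5-fold and 28.1% lower, and in the antagonist library, where only 33 cells and 56994 UMIs stood on the other side, 15.9% and 43.3% of 9689. The 0.5 UMIs added to each sum lower the ratio of genes with few or no UMIs in so small a group. Ggt1, with 22 UMIs in antagonist members and 0 CPM in Olfm4-high cells, had a log2 ratio of -1.15. Antagonist counts of lower genes against Olfm4-high cells can therefore include such genes. All 19 stem cell signature genes tested in control cells and all 17 tested in antagonist cells were lower by 1.5-fold, with medians of -2.86 and -2.97. Of the Wnt targets 12 of 13 and 11 of 11 were lower by as much, with medians of -1.87 and -1.90.

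The genes with the lowest ratio after Olfm4 itself were Lbh, Agr3, Gkn3, Foxa3, Sorbs2, Rgmb and Slco3a1. Lbh, a transcriptional regulator, stood at 18.9 CPM in control members and 294 CPM in control Olfm4-high cells, and at 10.5 and 211 CPM in the antagonist library. Rgmb, a BMP co-receptor, stood at 21.2 and 260 CPM and at 20.4 and 175 CPM. The genes with the highest ratio in both libraries were Reg1, Rbp2, Arg2, Adh6a, Gsta1, Fabp1, Chp2 and Car4. Rbp2 stood at 2956 CPM in control members and 54.1 CPM in Olfm4-high cells, and at 1962 and 70.2 CPM in the antagonist library. Fabp1 stood at 3617 and 65.7 CPM, and at 1383 and 87.7 CPM. Absorptive genes had a median log2 ratio of 2.30 over 22 genes in the control library, with 19 higher by 1.5-fold, and 0.50 over 31 genes in the antagonist library, with 14 higher and 5 lower.

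Replication genes had medians of 0.05 and -0.05 against Olfm4-high cells, where the medians over all tested genes were -0.18 and -0.43. In the control library 9 of 28 were higher and 3 lower by 1.5-fold, against 13.5% and 28.1% of all tested genes. In the antagonist library 8 of 32 were higher and 8 lower, against 15.9% and 43.3%. The share of cells with 3 or more such genes at 2000 UMIs was 40.9% in control members and 38.3% in control Olfm4-high cells. Only 12 antagonist Olfm4-high cells reached that depth.

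Promoter sequences are shown for Rbp2 and Fabp1, the most abundant of the genes that were higher than in Olfm4-high cells. The promoter of Olfm4, the gene with the lowest ratio, is set beside them. The rank of Olfm4 was fixed by the limits on Olfm4 that defined both groups. They are RefSeq windows in GRCm38.p6 from 250 bases before to 50 bases after the annotated start, written in the gene's direction. Capitals mark matches on either strand to 4 motifs, which can overlap each other. The motif of the TCF type, for Wnt effectors, was CTTTGA. The motif of the CDX type, for intestinal homeobox factors, was TTTATG and also, for the same factors, TTTATT in these windows. The motif of the HNF4 type was AAAGTCC and the TATA box was searched as TATAAA. The windows lie at chr9:98490287-98490586 (plus strand) for Rbp2, chr6:71199629-71199928 (plus strand) for Fabp1 and chr14:80000052-80000351 (plus strand) for Olfm4.
Rbp2: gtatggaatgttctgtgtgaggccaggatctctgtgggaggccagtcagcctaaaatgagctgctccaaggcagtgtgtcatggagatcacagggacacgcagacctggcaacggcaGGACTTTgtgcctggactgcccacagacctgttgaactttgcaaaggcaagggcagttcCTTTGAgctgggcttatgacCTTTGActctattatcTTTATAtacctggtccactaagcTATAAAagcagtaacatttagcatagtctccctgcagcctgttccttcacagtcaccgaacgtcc
Fabp1: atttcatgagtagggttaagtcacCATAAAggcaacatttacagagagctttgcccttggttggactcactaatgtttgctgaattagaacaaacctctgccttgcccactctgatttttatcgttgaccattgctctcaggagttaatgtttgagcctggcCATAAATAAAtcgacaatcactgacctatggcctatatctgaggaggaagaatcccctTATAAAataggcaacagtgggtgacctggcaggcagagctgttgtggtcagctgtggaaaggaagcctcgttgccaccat
Olfm4: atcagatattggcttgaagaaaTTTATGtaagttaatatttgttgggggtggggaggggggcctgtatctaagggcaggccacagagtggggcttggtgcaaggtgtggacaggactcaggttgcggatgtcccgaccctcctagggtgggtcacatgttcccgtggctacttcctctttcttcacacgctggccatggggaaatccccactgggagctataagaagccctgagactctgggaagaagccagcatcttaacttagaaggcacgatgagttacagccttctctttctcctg

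The Rbp2 window held 2 TCF-type, 1 HNF4-type and 2 TATA-type matches, the Fabp1 window 3 CDX-type and 1 TATA-type, and the Olfm4 window 1 CDX-type. Of all 32851 promoter windows of this length, 5257 held the TCF motif, 27.6% the CDX motif, 4.21% the HNF4 motif and 13.6% the TATA motif. Among the 7 genes highest against Olfm4-high cells apart from Arg2, 2, 2, 1 and 5 held a match of these types. Among the 7 lowest with an entry, Olfm4 included, 0, 3, 0 and 4 did. The window of Rbp7, at chr4:149454919-149455218 on the minus strand, held none of these letters. The table has no entry for Dmbt1, Arg2, Gsdmc4 and Slco3a1. A match describes letters and says nothing about binding.

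Against apolipoprotein-rich cells the order was reversed. Members were higher by 1.5-fold in 42.0% of 5715 genes and lower in 20.3% in the control library, and in 50.8% and 17.4% of 9948 genes in the antagonist library. All 34 absorptive genes were lower by 1.5-fold in members of both libraries, with medians of -2.79 and -3.74. The groups were split by apolipoproteins, which are enterocyte markers, so this count is not independent of the split. Apoa4, in the rule, stood at 21.2 and 4015 CPM in the control and 33.7 and 4383 CPM in the antagonist library. Outside the rule, Leap2, an antimicrobial peptide that also acts as a hormone, had 0 UMIs in control members and 1009 CPM in apolipoprotein-rich cells, and 4.39 and 559 CPM in the antagonist library. Cyp3a11, a drug-metabolising cytochrome, had 0 UMIs and 303 CPM, and 1.40 and 429 CPM.

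Replication genes were higher by 1.5-fold in members in 13 of 13 cases among control cells and 32 of 32 among antagonist cells, against 42.0% and 50.8% of all tested genes. In the control, 13 of 32 genes passed the limit of 20 UMIs over both groups, mainly through the members' UMIs. That count was therefore close to fixed in advance. The summed levels were 1358 CPM in members and 191 CPM in apolipoprotein-rich cells of the control, and 1890 and 300 CPM in the antagonist library. Dtl, a ubiquitin ligase subunit active in S phase, stood at 63.7 and 2.42 CPM, and at 76.0 and 3.06 CPM. Myb, a progenitor transcription factor, stood at 168 and 7.25 CPM, and at 135 and 10.2 CPM. At 2000 UMIs, 0 of 104 control apolipoprotein-rich cells (a share of up to 3.48%) and 2.47% of 162 antagonist ones held 3 or more replication genes. In the apolipoprotein-rich cells Arg2 stood at 434 and 582 CPM, above its level in members, whereas Rbp7 stood at 4.83 and 10.2 CPM.

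Against Dmbt1-high cycling cells the members differed least. In the control library 13.6% of 7769 genes were higher and 13.9% lower by 1.5-fold, and in the antagonist library, with the largest counts on both sides, 5.45% and 5.27% of 11221. The groups were split by mitotic genes, so lower levels of other mitotic genes in members follow from the split. Nusap1, for example, stood at 14.2 and 243 CPM in the control and 58.5 and 238 CPM in the antagonist library. Rbp7 was 84.99 and 144 CPM, and 83.2 and 119 CPM, Arg2 286 and 229 CPM, and 254 and 232 CPM, and Gsdmc4 28.3 and 26.8 CPM, and 42.1 and 41.3 CPM.

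Enterocyte genes were higher in members than in cycling cells in both libraries. The genes with the highest ratio were Creb3l3, Gsta1, Reg1, Alpi, Ces2c, Gstm3, Anpep and Enpep. Gsta1, a glutathione transferase, stood at 189 and 57.2 CPM in the control and 139 and 65.3 CPM in the antagonist library, and Anpep at 411 and 139 CPM and 181 and 109 CPM. The absorptive list had medians of 0.88 and 0.34, with 20 of 25 and 8 of 33 genes higher by 1.5-fold.

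**Figure D5:**
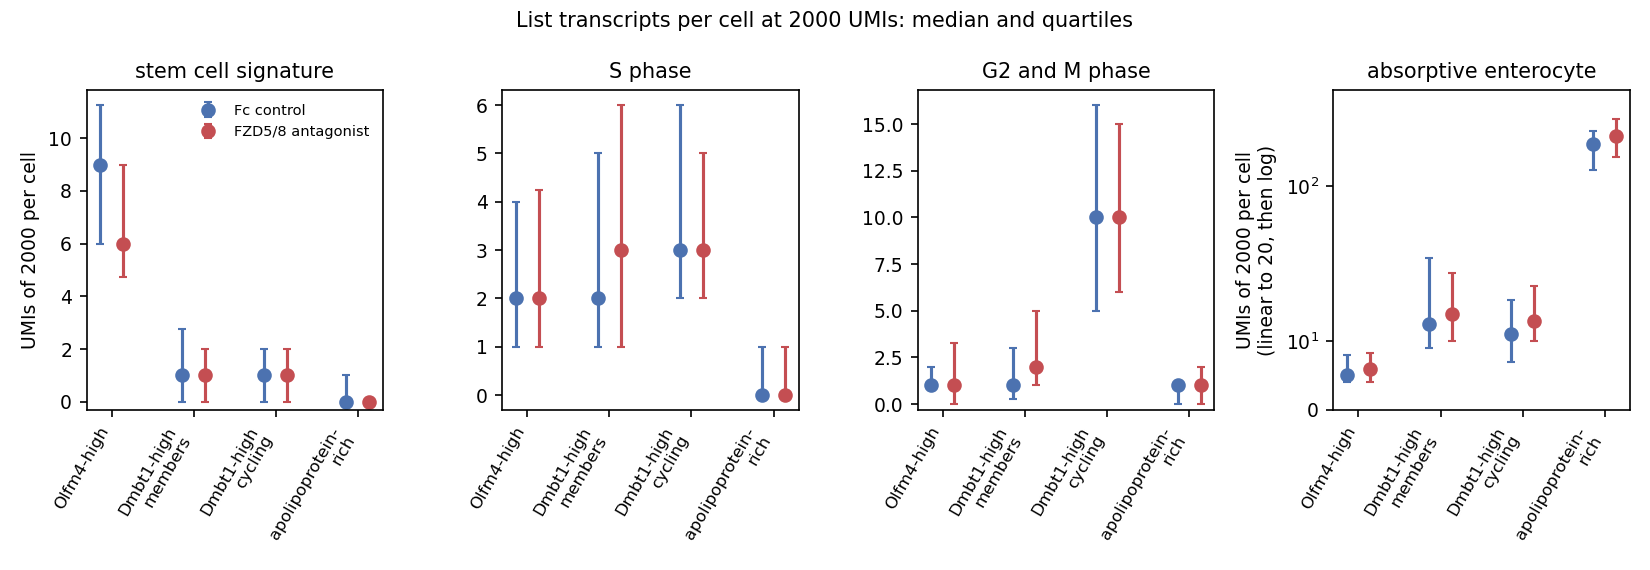
UMIs of each gene list per cell after thinning to 2000 UMIs (y axis; the absorptive panel is linear to 20 and then log) in members and the 3 neighbouring groups (x axis); points are medians over cells, bars the quartiles, blue Fc control and red FZD5/8 antagonist. Members lie with cycling cells for stem signature and absorptive transcripts, with medians of 1 and of 12.5 and 14. They lie below them for G2 and M transcripts, which follows from the split by mitotic genes.

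Within the members, cells of higher Dmbt1 differed in several transcripts in the antagonist library, where each range held enough cells. Of its members 941 had Dmbt1 at 0.3 to 0.5%, 1032 at 0.5 to 1%, 328 at 1 to 2% and 17 above, and the control members numbered 53, 34, 8 and 0. Across the first 3 ranges Fabp1 was 1586, 1277 and 1024 CPM and Agr2 269, 194 and 66.0 CPM. Arg2 was 230, 259 and 314 CPM, Smoc2 52.8, 74.0 and 85.6 CPM, Fzd5 95.9, 117 and 156 CPM, and Rbp7 85.4, 90.1 and 54.0 CPM. Summed replication genes were 1707, 2018 and 2094 CPM, whereas summed G2 and M genes were 1880.5, 1864 and 1588 CPM.

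Genes whose level per cell went most closely with Dmbt1 did so weakly. Over 1019 genes detected in at least 20% of members and cells thinned to 2000 UMIs, the highest Spearman coefficients, taken as the lower of the 2 libraries, were those of Krt19 (0.36 over 66 control cells and 0.24 over 1119 antagonist cells) and Krt8 (0.26 and 0.23), keratins of simple epithelium. Among the next were Gnas, Rpn1, Cps1, Eef1a1, Cdh1, Hspa8 and Calr. The cells of a library share preparation and sequencing, and the coefficients are a description.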

How the data were processed

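The data are UMI counts per gene and cell barcode from 2 droplet libraries of GFP-positive jejunal cells, one for each condition. The deposited counts had been made with Cell Ranger 3.1.0, per the file headers, against the build that the submitters' processing notes give as GRCm38 (mm10), and had not been normalized. The annotation release and the choice of barcodes are not stated in the labels. Members were found by the limits given above in both libraries. Their UMIs were summed per library and divided by the summed total, as CPM. Exact Poisson intervals were given for levels, exact (Clopper-Pearson) ones for shares of cells and exact conditional binomial ones for ratios, all at 95%, which cover counting error only. UMIs are molecules and not reads.

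Genes with at least 20 UMIs over the members compared were taken as tested, and a ratio of 1.5-fold or more in either direction was counted. Log2 ratios used a pseudocount of 0.5 UMIs. With 1 library per condition no p-value was computed. Named genes were the 12 highest and 12 lowest ratios among genes with 50 CPM in a library and 100 UMIs, the 8 highest and 8 lowest against each neighbouring group (by the smaller of the 2 libraries' differences), the 2 highest and 2 lowest genes of each list among those at 20 CPM or more, and the markers, the genes of the rule and 8 further genes by name. Unnamed gene models, mitochondrial genes and those for ribosomal proteins, antigen receptors or haemoglobin were not ranked. Other genes were named after their values were seen. The members and the gene lists were chosen with earlier results of these data known. The planned background of cells with 3 or more tuft markers held mostly deep cells in the antagonist library, with Dmbt1 at 829 CPM in the control and 2773 CPM in the antagonist library, so a stricter limit of 0.5% of UMIs from tuft markers was added after seeing the data. The same stricter limit for enteroendocrine markers gave Dmbt1 at 538 and 1647 CPM in 40 and 41 cells. Ratios and their intervals were tested on simulated data. Python 3.11.15, numpy 2.4.6, scipy 1.17.1 and pandas 2.3.3 were used.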

Additional observations from a re-analysis of the deposited data

Results flagged for a closer look

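Among gene lists compared between members and a neighbouring group, 2 had medians of opposite sign in the 2 libraries. Gasdermin genes had a median log2 ratio of members over apolipoprotein-rich cells of -2.31 among control cells and 2.62 among antagonist cells. Only 1 gasdermin gene was tested among control cells and 5 among antagonist cells, so the medians cover different genes. Gsdmd, the gene tested in both, was higher in apolipoprotein-rich cells in each library, at 192 and 205 CPM against 37.8 and 12.8 CPM in members. Sterol synthesis genes had a median log2 ratio of members over Olfm4-high cells of 0.93 over 16 genes among control cells and -0.38 over 19 genes among antagonist cells, where the Olfm4-high group held 33 cells. The difference between the libraries was not tested in either case.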

How the results depend on the processing

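No paired analysis was possible because each condition had 1 library. Settings were the limits of the rule, depth, scaling, weighting and count filters. The share of members was higher in the antagonist library under every setting run, with a ratio of 33.5 at a Dmbt1 limit of 0.5%, 11.3 at an Olfm4 limit of 0.2%, 7.52 without an Olfm4 limit, and 12.5 and 14.99 after thinning to 1000 and 3000 UMIs. Genes higher by 1.5-fold numbered 747 at the Olfm4 limit of 0.2%, 674 without one, 821 after thinning to 3000 UMIs, 525 with at least 100 UMIs and 129 at a mean of 50 CPM, and genes lower 649, 4830 and 213 with at least 100 UMIs, with no filter and at a mean of 50 CPM. The filters change how many genes are tested.

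The absorptive median was -1.02 at a Dmbt1 limit of 0.2%, -0.24 at an Olfm4 limit of 0.2%, 0.10 without one, -0.053 and -0.31 after thinning to 1000 and 3000 UMIs, -0.30 with equal weight per cell, -0.51 with matched UMI bins and -0.37 without the 5 deepest members. The G2 and M median was 0.79 at a Dmbt1 limit of 0.5%, 1.64 with none of the mitotic genes, 0.31 and 0.38 after thinning, 0.67 with equal weight, 0.58 with matched UMI bins and 0.83 without the 5 deepest members. The cause of these shifts was not tested.

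Among single genes and lists whose ratio was 1.5-fold or more under the rule, or whose median was as far from 0, those that changed sign, as log2 ratios, were Apoa4 at -0.72 with a Dmbt1 limit of 0.2% and Sox9 at -0.23 and -0.49 with an Olfm4 limit of 0.2% and none. After thinning to 1000 UMIs they were Sox9 at -0.035, Fabp1 at 0.092, Krt20 at 0.26, Sult2b1 at 0.45, Mki67 at -0.24 and Mphosph8 at -0.13, and after thinning to 3000 UMIs Mki67 at -0.26. With equal weight they were Cenpf at -0.32, Chgb at -0.25 and Muc2 at -0.038, and with matched UMI bins Cenpf at -0.15 and Sox9 at -0.038. The regenerative list was 0.082 without an Olfm4 limit and 0.54 at 1000 UMIs. Against neighbouring groups, gasdermins over control cycling cells were -0.051 at a Dmbt1 limit of 0.5% and -0.014 without cells above the 95th percentile of UMIs. At 1000 UMIs the retinoid list over control apolipoprotein-rich cells was 1.09 and the regenerative list over antagonist ones 0.42. At 3000 UMIs, against Olfm4-high cells, Wnt receptors were 0.064 in the control, and G2 and M genes -0.26 and regenerative genes -0.16 in the antagonist library. Genes under 1.5-fold by the rule that also changed sign in at least 1 alternative were Dmbt1, Gsdmc4, Rbp7 (in 10 of 21), Arg2 and Apoa1 (each in 8), Myc and Apoc3 (each in 5), Cdkn1a, Fzd5, Smoc2, Lyz1 and Top2a. Reg3b, Reg3g, Reg1, Il18, Adh6a, Agr2, Zg16, Pclaf and the stem cell signature kept their direction in all 21 alternatives run for them.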
